A study of Mus musculus with 6 samples.

Results

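The 50 genes described here encode machinery of mitosis: kinases and cyclins of mitotic entry, the chromosomal passenger complex, the spindle checkpoint, regulators of sister chromatid separation, kinetochore and centromere proteins, mitotic kinesins, spindle proteins, cytokinesis proteins, and condensin and other chromosome proteins. They were taken from a list of gene symbols that applies no measured value, although the list was drawn up with earlier results of these data known. All 50 were found among the 53379 genes of the count tables, and all 50 passed the filter on low counts, which kept 19339 genes. They were measured by RNA sequencing of mouse intestinal stem cells in 6 libraries. The control group and the group labelled Klf5-KO had 3 each. Mice of both groups were C57BL/6 and carried Lgr5-EGFP-IRES-CreERT2 and Rosa-tdTomato, and both received 1 mg tamoxifen per injection on 5 days in a row; the Klf5-KO genotype added Klf5fl/fl. The Lgr5 locus drives EGFP and the tamoxifen-inducible Cre in the first allele, so recombination depends on activity of that locus, and controls carried the same Cre and the same tamoxifen exposure. Crypts of the proximal small intestine were dissociated, cells with high EGFP were sorted, and total RNA depleted of ribosomal RNA was sequenced with strand information. The labels used here give no age, day of sorting or number of mice per library, so p-values reflect only the spread from library to library.

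Cells enter mitosis when Cdk1 bound to cyclin B becomes active. Condensed chromosomes then attach to the spindle through kinetochores, the spindle checkpoint holds back the anaphase-promoting complex until all are attached, and separase cuts cohesin so that sister chromatids part before cytokinesis divides the cell. Lgr5-positive stem cells at the crypt base divide steadily and renew the intestinal epithelium, and most transcripts of this machinery accumulate in late S phase, G2 and mitosis. Klf5 is a Krüppel-like zinc finger transcription factor of crypt epithelium, and the comparison addressed what its deletion does to the transcripts of these stem cells.

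Libraries held between 61563625 and 77666540 counts, and values are given as counts per 1000000 (CPM) on library sizes scaled with edgeR's trimmed mean of M-values. Counts assigned to Klf5 itself went against the labels: they stood at 480.3, 511.7 and 546.5 CPM in the control libraries and at 879.9, 918.4 and 876.9 CPM in those labelled Klf5-KO (log2 fold change 0.80 ± 0.10 SE, edgeR adjusted p = 6.3e-04). Gene-level counts do not separate floxed from other exons, so this checks the label only in part, and every direction below is relative to libraries labelled Klf5-KO. The stem cell transcripts Lgr5 (81.2 to 162.8 CPM) and Olfm4 (1540.2 to 7918 CPM) were present in every library. Control replicate 3 stood apart on the second principal component (-46.9, against 26.3 and 22.0 for the other controls; 13.2% of the variance), and its 8 Paneth cell markers summed to 16950 CPM against 1471 and 1752 CPM in the other controls and 7763 to 9821 CPM in libraries labelled Klf5-KO. Summed markers of immune cells (6.3 to 11.9 CPM) and of endothelial and mesenchymal cells (4.1 to 11.2 CPM) were low in all 6. In RNA of sorted cell pools, fewer dividing cells and less of a transcript per dividing cell cannot be told apart.

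Promoters of these genes share sequence elements that bind regulators of late cell cycle transcription. The cell cycle homology region, TTTGAA, is bound by the DREAM and MuvB complexes, and the CCAAT box by NF-Y. RefSeq promoter windows on GRCm38.p6, from 250 bases before to 50 bases after an annotated start, were found for 41 of the 50 genes, in 44 windows. TTTGAA on either strand was found in 79.5% of the members' windows, 12.3% of the 15194 windows of the other tested genes and 17.9% of all 32851 windows. CCAAT on either strand was found in 79.5%, 37.4% and 37.4% of these windows, and both motifs together in 70.5%, 4.83% and 6.95%. The core CCNCNCCC, a GC-rich form of the element that Krüppel-like factors bind, was looked for after values had been seen; it was in 56.8% of the members' windows and in 65.8% of those of the other tested genes. The 160 bases before the RefSeq start are shown for Ect2, the gene with the largest increase, Cdk1, Kif23 and 2 members that did not pass the test, the proliferation marker Mki67 and the anaphase activator Cdc20, with the 2 motifs in capitals on either strand (TTCAAA and ATTGG are their reverse complements).
Ect2, chr3:27153879-27154038, minus strand: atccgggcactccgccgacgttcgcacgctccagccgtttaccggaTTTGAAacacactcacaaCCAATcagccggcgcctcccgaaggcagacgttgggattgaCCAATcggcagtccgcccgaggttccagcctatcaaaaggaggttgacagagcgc
Cdk1, chr10:69352913-69353072, minus strand: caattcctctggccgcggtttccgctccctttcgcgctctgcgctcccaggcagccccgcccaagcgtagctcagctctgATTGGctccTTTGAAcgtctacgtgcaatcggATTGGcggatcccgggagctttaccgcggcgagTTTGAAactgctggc
Kif23, chr9:61946800-61946959, minus strand: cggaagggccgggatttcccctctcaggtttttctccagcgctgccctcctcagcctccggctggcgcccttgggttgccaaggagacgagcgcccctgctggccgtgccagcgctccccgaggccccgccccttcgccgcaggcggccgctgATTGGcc
Mki67, chr7:135716380-135716539, minus strand: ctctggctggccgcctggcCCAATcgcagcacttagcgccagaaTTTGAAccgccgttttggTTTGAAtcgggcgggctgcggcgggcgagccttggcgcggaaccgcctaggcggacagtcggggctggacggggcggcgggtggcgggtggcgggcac
Cdc20, chr4:118437344-118437503, minus strand: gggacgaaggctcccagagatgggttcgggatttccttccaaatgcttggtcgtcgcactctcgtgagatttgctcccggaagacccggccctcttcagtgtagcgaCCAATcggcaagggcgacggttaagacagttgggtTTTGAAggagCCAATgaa
Ect2 and Cdk1, which were higher in the libraries labelled Klf5-KO, and Mki67 and Cdc20, which did not pass the test, each had both motifs in the printed stretch. Kif23 had 1 CCAAT box there and its TTTGAA in the 50 bases after the start. Bub3, which rose, had both motifs in its windows, and Pttg1, which also rose, had neither; these are not printed because most of the stretch lies inside the GENCODE gene. A match of letters is a description and not evidence of binding.

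Most of the mitotic genes did not pass the test between the groups. With all 6 libraries, 4 of 50 rose in the libraries labelled Klf5-KO (Ect2, Pttg1, Cdk1 and Bub3), 1 fell (Kif23) and 45 did not pass (edgeR's quasi-likelihood test, Benjamini-Hochberg adjusted p under 0.05). That is 10% of the members, against 25.8% of all 19339 genes tested and 26.9% of the 9246 tested genes that averaged 10 CPM or more. By direction, 13.3% of all tested genes were higher and 12.5% lower. The members' median log2 fold change was -0.05, with 28 below zero and 22 above, beside a median of -0.01 over all genes. For 48 of 50 members the 95% interval of the log2 fold change lay within -1 and 1, that is within 2-fold either way, which held for 61.2% of all tested genes; the exceptions were Ect2 and Pttg1. The groups did not overlap in 7 members that were higher (Ect2, Pttg1, Cdk1, Bub3, Spc25, Spc24 and Plk1) and 2 that were lower (Kif23 and Cdc20), beside 22.2% and 21.0% of all tested genes, or 43.2% in either direction. All 50 members averaged more than 10 CPM, while the shares for intervals and overlap cover tested genes of any level.

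Without control replicate 3, the same 4 members were higher and 11 were lower (Bub1, Cenpf, Espl1, Kif14, Kif20a, Kif23, Kif4, Mki67, Ncapd2, Racgap1 and Tpx2), which is 30% of the members against 27.2% of the 19879 genes tested in that fit. By direction, 13.8% of genes were then higher and 13.4% lower. The median log2 fold change moved to -0.16, with 38 of 50 members below zero. Of these 11, Kif23 passed in both edgeR fits and the other 10 in the fit without this library. With all 6 libraries, DESeq2 also called Cenpf, Kif20a, Mki67 and Ncapd2 lower.

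**Figure D1:**
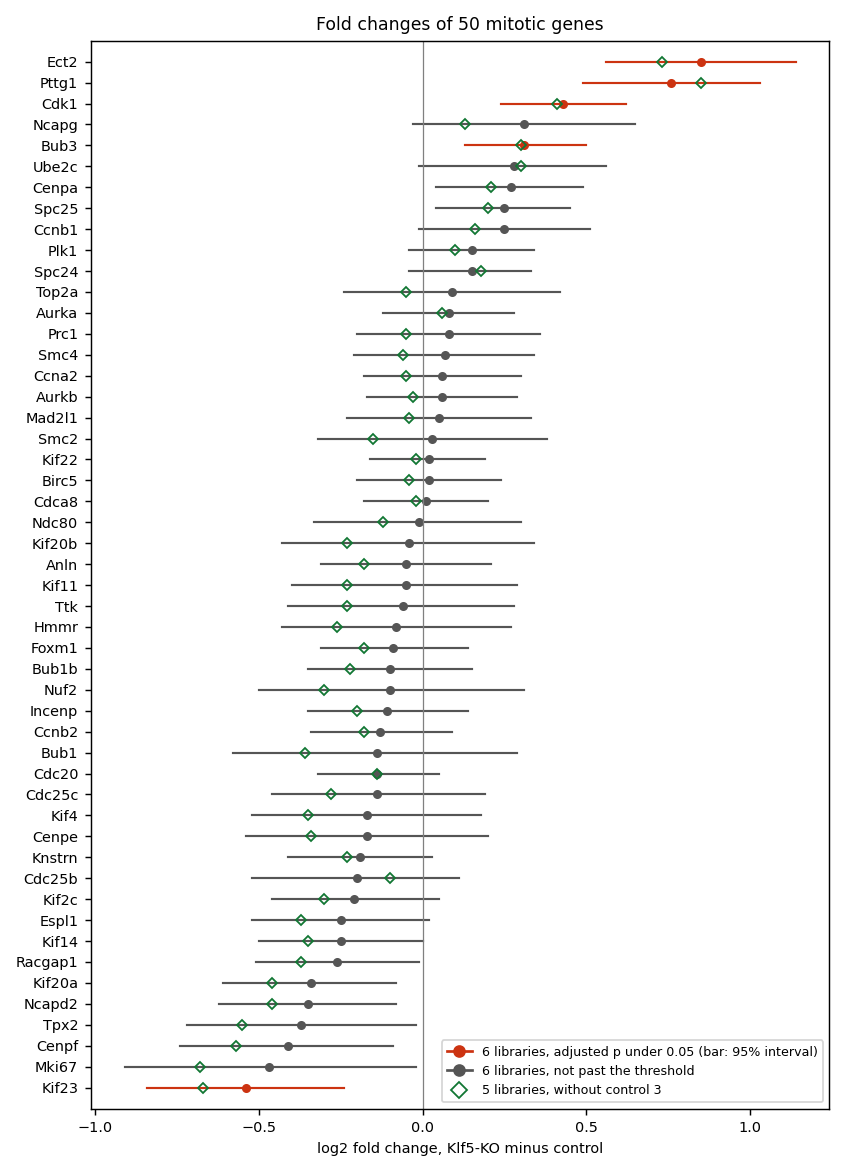
Log2 fold change (labelled Klf5-KO against control) of each of the 50 members, with its 95% interval as a bar, in all 6 libraries (filled points, red where the adjusted p was under 0.05) and without control replicate 3 (open diamonds), ordered by value. Ect2 (0.85) and Pttg1 (0.76) lie farthest to the right, and most members shift to the left when control replicate 3 is left out.

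Among 9 genes of mitotic entry, 1 rose and none fell (11.1% called, against 25.8% of all tested genes), and the median log2 fold change was 0.06. There were 0 lower also at an unadjusted p under 0.05 in edgeR, in DESeq2 and in limma-voom. Cdk1 (ENSMUSG00000019942.13; mm10 chr10:69335146-69352938, minus strand), the kinase that drives entry into mitosis, stood at 66.7, 60.0 and 60.7 CPM in the control libraries and at 79.0, 86.7 and 87.4 CPM in those labelled Klf5-KO. All 3 libraries labelled Klf5-KO lay above all 3 controls. The mean went from 62.47 ± 3.67 to 84.37 ± 4.68 CPM (SD, n = 3 each), a 1.35-fold rise (log2 fold change 0.43 ± 0.09 SE, 95% interval 0.24 to 0.62, edgeR adjusted p = 0.0059), and leaving out control replicate 3 gave 0.41 (adjusted p = 0.0089).

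The cyclins that activate Cdk1 did not pass the test. Ccnb1, cyclin B1, read 76.9, 63.7 and 57.6 CPM in controls and 72.2, 83.2 and 80.0 CPM in libraries labelled Klf5-KO, with overlap through control replicate 1 (log2 fold change 0.25, 95% interval -0.01 to 0.51, edgeR adjusted p = 0.15). Ccnb2, cyclin B2, read 89.5, 83.3 and 78.1 against 71.4, 73.4 and 84.7 CPM, a difference of -0.13 on the log2 scale (adjusted p = 0.36). Ccna2, cyclin A2, which acts in S phase and G2, read 165.1, 148.5 and 124.4 against 148.3, 154.7 and 152.9 CPM (0.06, interval -0.18 to 0.30, adjusted p = 0.73). For each of the 3 cyclins the groups overlapped.

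The other kinases and the phosphatases of mitotic entry did not pass the test. Plk1, which promotes entry, spindle assembly and cytokinesis, read 90.7, 87.0 and 80.8 CPM in controls and 92.1, 100.6 and 94.0 CPM in libraries labelled Klf5-KO. Its groups did not overlap, yet the difference of 0.15 (interval -0.04 to 0.34, edgeR adjusted p = 0.22) did not pass. Aurka, the kinase of spindle poles, read 51.9, 48.0 and 47.8 against 47.2, 55.4 and 53.4 CPM (0.08, adjusted p = 0.56). Among the phosphatases that remove inhibitory phosphates from Cdk1, Cdc25b differed by -0.20 on the log2 scale (adjusted p = 0.32) and Cdc25c by -0.14 (adjusted p = 0.53). Cdc25b also went its own way among the controls, at 44.4, 50.8 and 58.1 CPM, with control replicate 3 the highest. Foxm1, the transcription factor that with MuvB and B-Myb drives many of these genes, read 88.4, 84.3 and 69.5 CPM in controls and 74.7, 76.8 and 76.7 CPM in libraries labelled Klf5-KO (-0.09, interval -0.31 to 0.14, adjusted p = 0.57). Foxm1 shares exons on its strand with Tex52 and Gm44596, so its count is uncertain.

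The chromosomal passenger complex, which corrects wrong kinetochore attachments and later acts at the cleavage site, had no member past the test among 4, with all 6 libraries or without control replicate 3. None had an unadjusted p under 0.05 in edgeR, and DESeq2 and limma-voom called none. Aurkb, its kinase, read 66.9, 60.1 and 52.1 CPM in controls and 64.2, 63.1 and 59.8 CPM in libraries labelled Klf5-KO (log2 fold change 0.06, interval -0.17 to 0.29). Birc5, survivin, read 55.2, 50.5 and 47.0 against 47.3, 56.4 and 50.9 CPM (0.02, interval -0.20 to 0.24). Cdca8, borealin, read 70.2, 64.1 and 63.2 against 62.6, 70.2 and 66.2 CPM (0.01, interval -0.18 to 0.20). Incenp, the scaffold, read 191.5, 167.4 and 146.8 against 167.6, 155.5 and 147.1 CPM (-0.11, edgeR adjusted p = 0.52). The groups overlapped in all 4, and the complex summed to 383.9, 342.1 and 309.2 CPM in controls and to 341.6, 345.3 and 323.9 CPM in libraries labelled Klf5-KO.

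Of 5 spindle checkpoint genes, Bub3 rose and 4 did not pass (20% called, against 25.8% of all tested genes). Bub3 (ENSMUSG00000066979.6; chr7:131560222-131571895, plus strand), which brings Bub1 and BubR1 to kinetochores, read 73.4, 68.9 and 68.7 CPM in controls and 85.0, 93.6 and 83.7 CPM in libraries labelled Klf5-KO. The groups did not overlap, and the mean went from 70.3 ± 2.66 to 87.42 ± 5.37 CPM (SD, n = 3 each). Its log2 fold change of 0.31 ± 0.08 (SE, interval 0.13 to 0.50, edgeR adjusted p = 0.022) was the smallest of the 4 rises. It no longer passed without control replicate 2 (0.30, adjusted p = 0.063) and without Klf5-KO replicate 2 (0.28, adjusted p = 0.051).

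The other checkpoint genes did not pass with all 6 libraries. Bub1b, which encodes BubR1, read 118.8, 109.5 and 87.2 CPM in controls and 97.6, 98.2 and 98.7 CPM in libraries labelled Klf5-KO (-0.10, edgeR adjusted p = 0.55). Bub1, a checkpoint kinase of kinetochores, read 49.2, 40.6 and 26.0 against 36.5, 32.4 and 36.0 CPM, so that control replicate 3 was the lowest and the other controls the highest of the 6. Its difference was -0.14 (interval -0.58 to 0.29, adjusted p = 0.62) with this library and -0.36 (adjusted p = 0.035) without it. Ttk, the kinase Mps1 that starts checkpoint signalling, and Mad2l1, which encodes the inhibitor Mad2, had log2 fold changes of -0.06 (adjusted p = 0.80) and 0.05 (adjusted p = 0.80). In all 5 checkpoint genes control replicate 3 was the lowest of the 6 libraries.

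Of 4 genes that promote or carry out separation of sister chromatids, Pttg1 rose and 3 did not pass (25% called, against 25.8% of all tested genes). Pttg1 (ENSMUSG00000020415.16; chr11:43420250-43426251, minus strand) encodes securin, which holds separase inactive until the checkpoint is satisfied. It read 14.7, 12.9 and 16.5 CPM in controls and 23.2, 24.0 and 27.5 CPM in libraries labelled Klf5-KO, with no overlap. The mean went from 14.7 ± 1.79 to 24.92 ± 2.3 CPM (SD, n = 3 each), a 1.7-fold rise (log2 fold change 0.76 ± 0.12 SE, interval 0.49 to 1.03, edgeR adjusted p = 0.0021). Without control replicate 3 the value was 0.85 (adjusted p = 0.0025).

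Espl1, which encodes separase itself, did not pass the test. It read 96.3, 99.5 and 73.5 CPM in controls and 81.2, 73.3 and 72.2 CPM in libraries labelled Klf5-KO, with overlap through control replicate 3. The difference was -0.25 (interval -0.52 to 0.02, edgeR adjusted p = 0.16), and -0.37 (adjusted p = 0.01) without that library. Cdc20, the activator of the anaphase-promoting complex, read 105.0, 101.6 and 102.2 against 85.7, 99.0 and 96.3 CPM. These groups did not overlap, but the difference of -0.14 ± 0.08 (SE, adjusted p = 0.27) did not pass. Ube2c, the ubiquitin-conjugating enzyme that works with that complex, read 95.6, 87.6 and 97.2 against 93.0, 133.7 and 112.8 CPM (0.28, interval -0.01 to 0.56, adjusted p = 0.14), and Klf5-KO replicate 1 lay among the controls. No gene of this group had control replicate 3 as its lowest library.

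None of 8 kinetochore and centromere genes passed with all 6 libraries, while 2 higher and 1 lower had an unadjusted p under 0.05 in edgeR, DESeq2 called 1 lower and limma-voom none. Nearest to the threshold above zero were Spc25 and Cenpa. Spc25, a subunit of the Ndc80 complex that binds microtubules, read 22.9, 21.6 and 20.2 CPM in controls and 26.6, 24.8 and 25.4 CPM in libraries labelled Klf5-KO, without overlap (0.25 ± 0.09 SE, edgeR adjusted p = 0.077). Cenpa, the histone H3 variant of centromeres, read 83.3, 72.0 and 68.0 against 82.5, 93.6 and 92.9 CPM (0.27, adjusted p = 0.078).

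The other subunits of the Ndc80 complex did not pass the test either. Spc24 read 35.2, 34.2 and 37.1 CPM in controls and 40.3, 37.9 and 39.5 CPM in libraries labelled Klf5-KO (0.15, edgeR adjusted p = 0.22), again without overlap. Ndc80 read 35.5, 31.4 and 26.2 against 34.0, 25.7 and 32.6 CPM (-0.01, adjusted p = 0.96). Nuf2 read 44.0, 37.5 and 25.1 against 35.2, 29.6 and 35.0 CPM (-0.10, adjusted p = 0.73). Both Ndc80 and Nuf2 overlapped between the groups, and the difference between subunits was not tested.

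Cenpf and Cenpe, which encode large kinetochore proteins, lay below zero. Cenpf, a protein of the outer kinetochore that rises in G2, read 210.7, 184.5 and 136.0 CPM in controls and 133.0, 122.8 and 142.6 CPM in libraries labelled Klf5-KO. Controls 1 and 2 lay above all 3 of those libraries and control replicate 3 lay among them. The difference was -0.41 ± 0.15 (SE, interval -0.74 to -0.09, edgeR adjusted p = 0.065), and -0.57 (adjusted p = 0.0036) without that control. Cenpe, the kinetochore kinesin that brings chromosomes to the spindle equator, read 233.7, 179.7 and 138.5 against 173.8, 150.4 and 164.9 CPM (-0.17, adjusted p = 0.47). For Knstrn, which encodes kinastrin, the difference was -0.19 (adjusted p = 0.19).

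Mitotic kinesins, the motors that build and order the spindle, gave 1 lower and 0 higher calls among 8 in edgeR, and a median of -0.19. Of all tested genes, 12.5% were lower and 13.3% higher. No kinesin was higher at an unadjusted p under 0.05, in DESeq2 or in limma-voom. Without control replicate 3, 4 were lower (50%, against 13.4% of all genes tested in that fit). Kif23 (ENSMUSG00000032254.10; chr9:61915905-61946774, minus strand) encodes the motor subunit of centralspindlin, which bundles microtubules of the central spindle. It read 145.2, 126.1 and 101.7 CPM in controls and 92.0, 75.8 and 88.9 CPM in libraries labelled Klf5-KO, and every control lay above every one of those libraries. The mean went from 124.3 ± 21.8 to 85.55 ± 8.63 CPM (SD, n = 3 each), a log2 fold change of -0.54 ± 0.13 (SE, interval -0.84 to -0.24, edgeR adjusted p = 0.017). It was -0.67 (adjusted p = 0.003) without control replicate 3, and it no longer passed without control replicate 1 (-0.41, adjusted p = 0.052) and without Klf5-KO replicate 2 (-0.44, adjusted p = 0.067).

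In the edgeR fit as reported, 3 further kinesins did not pass with all 6 libraries and passed without control replicate 3. Kif20a, a motor of the central spindle, read 90.2, 86.8 and 68.1 CPM in controls and 65.4, 59.2 and 68.4 CPM in libraries labelled Klf5-KO. Its difference was -0.34 ± 0.12 (SE, edgeR adjusted p = 0.056), and -0.46 (adjusted p = 0.0052) without that library; DESeq2 called it lower with all 6 libraries (adjusted p = 0.032). Kif14, which acts in cytokinesis, read 65.0, 55.8 and 48.4 against 49.2, 47.7 and 45.1 CPM (-0.25, adjusted p = 0.13, and -0.35, adjusted p = 0.021). The chromokinesin Kif4 read 97.3, 83.7 and 59.8 against 76.3, 67.2 and 70.2 CPM (-0.17, adjusted p = 0.45, and -0.35, adjusted p = 0.025). In each of them controls 1 and 2 were above all libraries labelled Klf5-KO, and control replicate 3 was below at least 1 of these.

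The other 4 kinesins did not pass in either fit. Kif2c, which takes microtubules apart at centromeres, read 65.8, 56.3 and 49.9 CPM in controls and 51.7, 45.2 and 52.3 CPM in libraries labelled Klf5-KO (-0.21, edgeR adjusted p = 0.22). Kif11, the motor Eg5 that pushes spindle poles apart, read 189.3, 168.6 and 118.3 against 166.0, 143.5 and 149.1 CPM (-0.05, adjusted p = 0.82). Kif20b, which acts late in cytokinesis, read 118.5, 92.9 and 66.7 against 92.4, 89.5 and 87.9 CPM (-0.04, adjusted p = 0.87). Kif22, a chromokinesin, read 64.5, 61.8 and 58.2 against 62.2, 63.3 and 61.1 CPM (0.02, interval -0.16 to 0.19), among the narrowest intervals of the members.

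None of 3 spindle assembly and midzone genes passed with all 6 libraries; 1, lower, had an unadjusted p under 0.05 in edgeR, and neither DESeq2 nor limma-voom called any. Tpx2, which activates Aurora A on spindle microtubules, read 107.3, 100.9 and 66.7 CPM in controls and 70.8, 68.0 and 74.0 CPM in libraries labelled Klf5-KO. Control replicate 3 was the lowest of all 6, and the difference was -0.37 (interval -0.72 to -0.02, edgeR adjusted p = 0.12) with it and -0.55 (adjusted p = 0.0015) without it. Prc1, the bundler of midzone microtubules, read 112.4, 95.6 and 77.9 against 97.0, 103.6 and 101.8 CPM (0.08, adjusted p = 0.67). Hmmr, a spindle protein and hyaluronan receptor, read 70.3, 64.2 and 44.1 against 55.3, 53.4 and 60.3 CPM (-0.08, adjusted p = 0.74).

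Cytokinesis held the largest rise of all 50 genes. Ect2 (ENSMUSG00000027699.19; chr3:27097222-27153878, minus strand) encodes the exchange factor that starts contraction at the cleavage furrow. It read 107.5, 98.5 and 77.4 CPM in controls and 176.4, 152.1 and 184.0 CPM in libraries labelled Klf5-KO, so that the lowest of the latter lay above the highest control. The mean went from 94.45 ± 15.5 to 170.8 ± 16.6 CPM (SD, n = 3 each), a 1.81-fold rise (log2 fold change 0.85 ± 0.13 SE, interval 0.56 to 1.14, edgeR adjusted p = 0.0016). Without control replicate 3 it was 0.73 (adjusted p = 0.0018).

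Kif23, described above, fell, and 2 further genes of cytokinesis did not pass the test with all 6 libraries. Racgap1, the other subunit of centralspindlin, which recruits Ect2 to the midzone, read 134.6, 129.3 and 101.4 CPM in controls and 104.9, 97.1 and 103.8 CPM in libraries labelled Klf5-KO. Control replicate 3 lay within the range of those libraries, and the difference was -0.26 (edgeR adjusted p = 0.12) with it and -0.37 (adjusted p = 0.0073) without it. Anln, anillin, the scaffold of the contractile ring, read 90.4, 87.4 and 66.6 against 80.7, 77.4 and 78.0 CPM (-0.05, adjusted p = 0.78).

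Among 6 genes of chromosome structure none passed with all 6 libraries; 2, lower, had an unadjusted p under 0.05 in edgeR, DESeq2 called those 2 lower and limma-voom none. Mki67, which encodes Ki-67, the coat of mitotic chromosomes used as a marker of dividing cells, read 1368.3, 1193.6 and 746.4 CPM in controls and 821.3, 745.7 and 828.8 CPM in libraries labelled Klf5-KO. Controls 1 and 2 were the highest, and control replicate 3 lay at the level of the lowest library labelled Klf5-KO. The mean went from 1103 ± 321 to 798.6 ± 46.0 CPM (SD, n = 3 each), a log2 fold change of -0.47 ± 0.20 (SE, interval -0.91 to -0.02, edgeR adjusted p = 0.11). Without control replicate 3 it was -0.68 (adjusted p = 0.0055).

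Top2a, the topoisomerase that untangles sister chromatids, lay near zero. It read 569.9, 453.6 and 368.6 CPM in controls and 511.2, 489.3 and 483.1 CPM in libraries labelled Klf5-KO, all 3 of which lay within the controls' range (0.09, interval -0.24 to 0.42, edgeR adjusted p = 0.68). The condensin ATPases Smc2 and Smc4 had log2 fold changes of 0.03 (adjusted p = 0.91) and 0.07 (adjusted p = 0.73), with overlap in both.

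The other condensin genes among the members lay on either side of zero. Ncapd2, a regulatory subunit of condensin I, read 247.8, 234.9 and 186.1 CPM in controls and 190.7, 163.4 and 171.2 CPM in libraries labelled Klf5-KO (-0.35 ± 0.12 SE, interval -0.62 to -0.08, edgeR adjusted p = 0.058). Its value was -0.46 without control replicate 3 (adjusted p = 0.007). Ncapg, another regulatory subunit of condensin I, read 66.4, 58.5 and 41.1 against 68.3, 71.2 and 66.3 CPM (0.31, interval -0.03 to 0.65, adjusted p = 0.17). Its groups overlapped by a narrow margin through control replicate 1. Ncapd2 shares exons with Scarna10 and Gm28967, and Top2a with Gm23451, so their counts are uncertain.

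**Figure D2:**
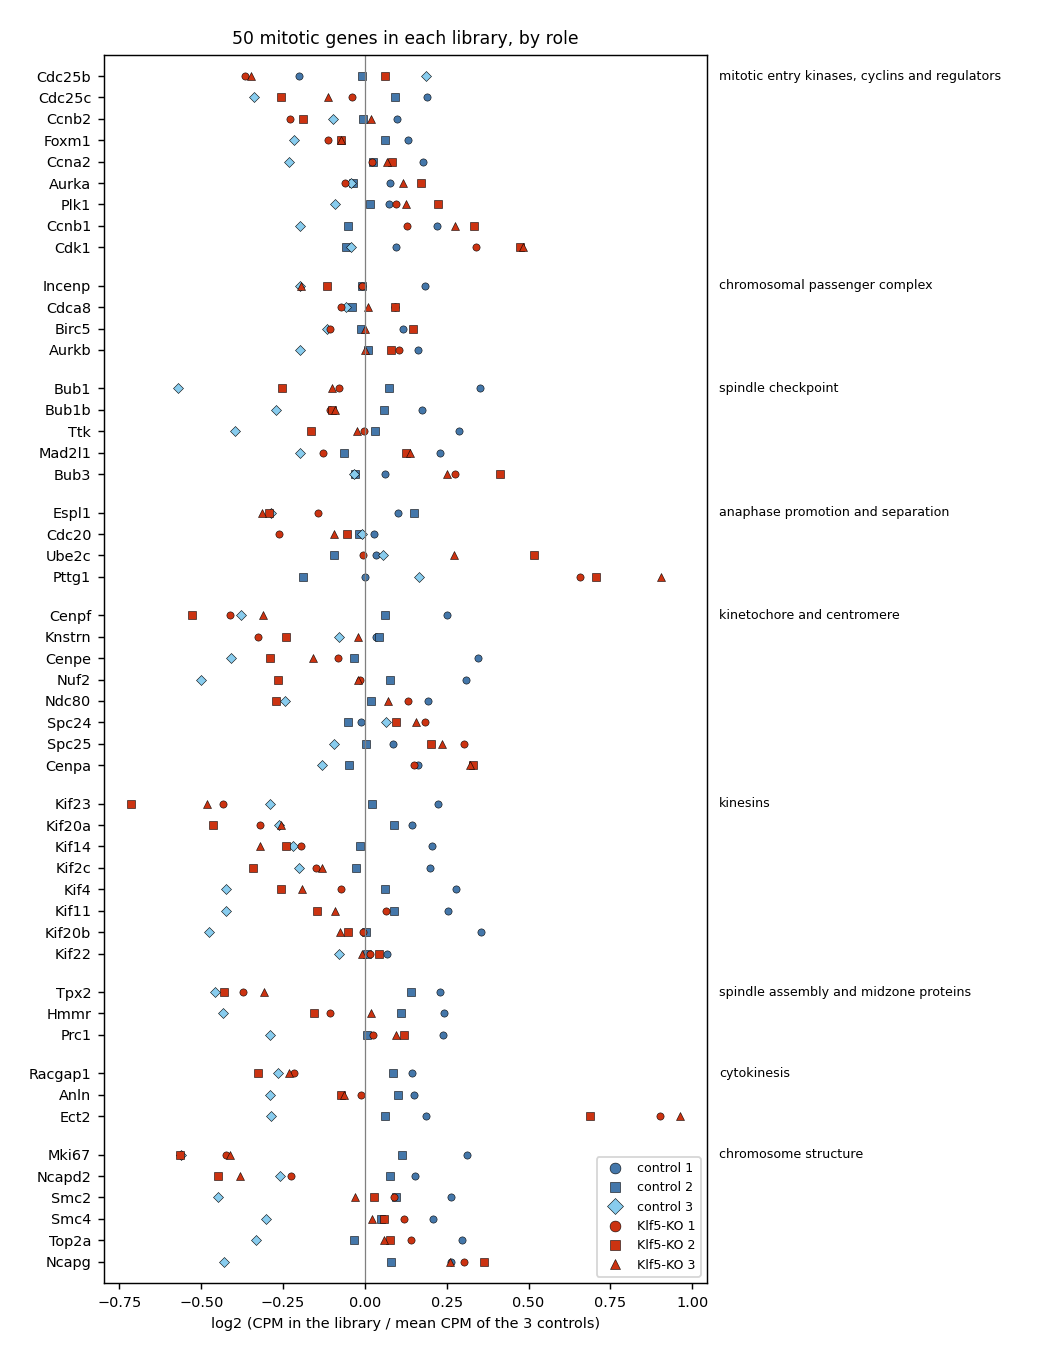
Log2 of the CPM over the mean of the 3 controls for each of the 50 members in each of the 6 libraries (1 symbol a library, controls blue, labelled Klf5-KO red), grouped by role. Control replicate 3 is below the other controls for 44 of 50 members, while the 3 libraries labelled Klf5-KO lie close together.

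Genes whose products act together were also described by ratios of their counts within each library, which do not depend on scaling between libraries; the pairs were chosen after the values had been seen and carry no test. The ratio of Ect2 to Kif23 was 0.740, 0.781 and 0.761 in controls and 1.92, 2.01 and 2.07 in the libraries labelled Klf5-KO, a mean of 0.761 ± 0.02 against 2.0 ± 0.076 (SD, n = 3 each), or 2.63 times as high. Control replicate 3 sat between the other controls in this ratio. That of Ect2 to Racgap1 was 0.798, 0.761 and 0.763 against 1.68, 1.57 and 1.77, and that of Racgap1 to Kif23, the 2 subunits of centralspindlin, was 0.927, 1.03 and 0.997 against 1.14, 1.28 and 1.17.

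Securin and separase were compared in the same way. The ratio of Pttg1 to Espl1 was 0.153, 0.130 and 0.224 in controls and 0.286, 0.328 and 0.381 in the libraries labelled Klf5-KO, 1.96 times as high on average. Bub3 to Bub1b went from 0.618, 0.629 and 0.788 to 0.871, 0.953 and 0.848, without overlap, whereas Bub3 to Bub1 overlapped (1.49, 1.70 and 2.65 against 2.33, 2.89 and 2.32). Ncapg to Ncapd2 went from 0.268, 0.249 and 0.221 to 0.358, 0.436 and 0.388. The ratio of Cdk1 to Ccna2 did not overlap between the groups (0.404, 0.404 and 0.488 against 0.533, 0.561 and 0.572), whereas that of Cdk1 to Ccnb1 did (0.868, 0.943 and 1.05 against 1.09, 1.04 and 1.09). Smc2 to Smc4, the condensin core, was 0.567, 0.563 and 0.492 against 0.533, 0.534 and 0.526, which overlapped.

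**Figure D3:**
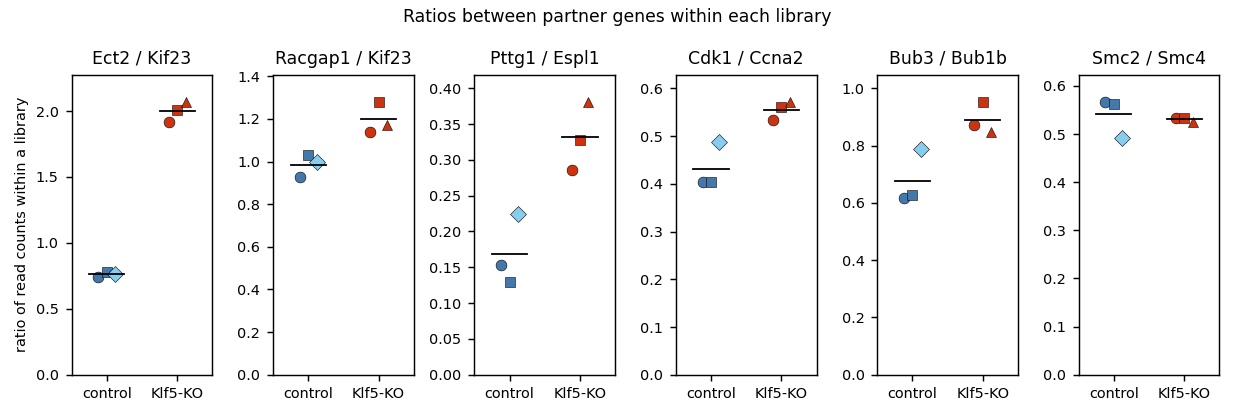
Ratio of counts of 2 genes whose products act together, in each of the 6 libraries (symbols), with the mean of each group as a line, for 6 of the pairs. For Ect2 to Kif23 the controls lie between 0.740 and 0.781 and the libraries labelled Klf5-KO between 1.92 and 2.07, while Smc2 to Smc4 overlaps.

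Control libraries spread more widely than those labelled Klf5-KO in these genes. The members' median coefficient of variation was 14.8% among controls and 6.4% among libraries labelled Klf5-KO, beside 8.5% and 6.7% for the 9246 genes with at least 10 CPM. Summed over all 50 genes, controls stood at 6464, 5726 and 4493 CPM and the libraries labelled Klf5-KO at 5245, 5093 and 5244 CPM, between control replicate 3 and the other controls. The median member, as log2 of its value over the controls' mean, was at 0.18, 0.02 and -0.25 in controls and at -0.03, -0.06 and -0.02 in the libraries labelled Klf5-KO.

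Control replicate 3 was the lowest of the 6 libraries in 30 of 50 members, which held for 20.5% of all tested genes and 26.4% of those with at least 10 CPM. It was below both other controls in 44 of 50, against 37.6% of all genes. Control replicate 1 was the highest of the 6 in 33 of 50, against 14.0% of all genes. The shares of 37.6% and 14.0% cover tested genes of any level. Relative to the mean of the other controls, control replicate 3 was lowest in Bub1 (-0.79 on the log2 scale), Mki67 (-0.78), Nuf2 (-0.70) and Kif20b (-0.66). It was above that mean in Cdc25b (0.29), Pttg1 (0.25), Spc24 (0.10) and Ube2c (0.09). The same library had the highest sum of Paneth cell markers, which are transcripts of cells that do not divide. Of these 8 markers, 0 passed with all 6 libraries. Without control replicate 3, all 8 were higher in libraries labelled Klf5-KO (median log2 fold change 2.49), beside 13.8% of all genes tested in that fit. The part of Paneth cells in the mitotic values was not tested.

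**Figure D4:**
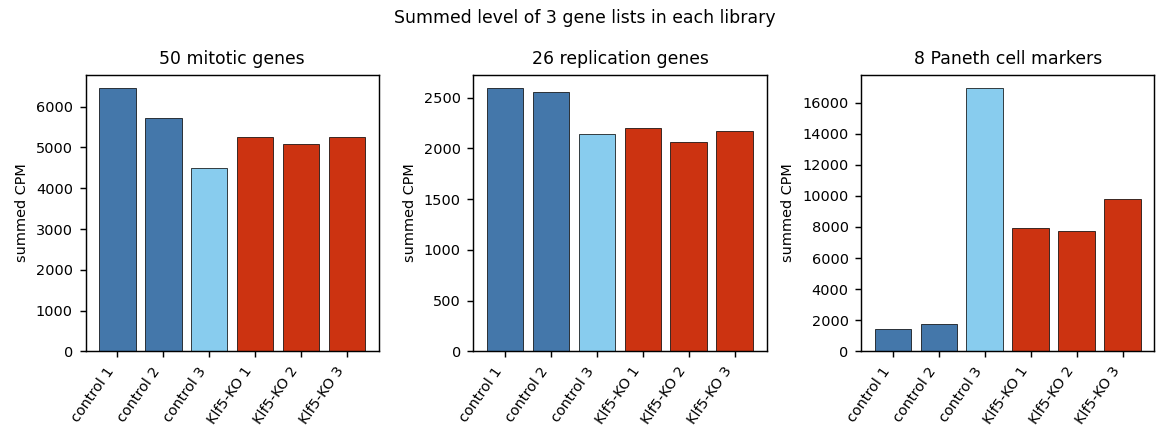
Summed CPM in each of the 6 libraries (bars) for the 50 members, 26 S phase genes and 8 Paneth cell markers, each panel with its own axis from 0. For the 50 members, control replicate 3 (4493 CPM) is the lowest library and control replicate 1 (6464 CPM) the highest, and for the Paneth cell markers control replicate 3 (16950 CPM) is the highest.

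Sums of other cell type markers also differed between the groups. Goblet cell markers summed to 2667, 2393 and 2448 CPM in controls and 1521, 1172 and 1255 CPM in libraries labelled Klf5-KO. Of 7, 3 were called lower and 0 higher, beside 12.5% and 13.3% of all tested genes. Without control replicate 3, 3 were lower and 1 higher, beside 13.4% and 13.8%. Most of the difference in the goblet sum lay in Fcgbp (1689.4, 1530.6 and 1146.2 against 645, 419 and 505 CPM), while Muc2 (420, 335 and 532 against 403, 373 and 317 CPM) and Agr2 overlapped between the groups. Spink4 overlapped too, at 116, 109 and 370 against 182, 175 and 207 CPM, with controls 1 and 2 the lowest. Clca1 and Zg16 overlapped as well, although Zg16 was among the 3 called lower. Enteroendocrine markers summed to 150.8, 166.6 and 300.2 against 83.26, 93.63 and 90.26 CPM. Most of the difference in the enteroendocrine sum lay in Chgb (93.8, 108.6 and 199.7 against 51.3, 54.9 and 54.9 CPM). Of 9 enteroendocrine markers, 8 were called lower and 0 higher, and Tac1 overlapped between the groups. Tuft cell markers summed to 89.72, 94.5 and 72.35 against 205.2, 156.8 and 112.1 CPM, and enterocyte markers to 1052, 834.9 and 1069 against 2907, 1743 and 2233 CPM. The groups overlapped in the tuft markers Trpm5 and Pou2f3 and in the enterocyte markers Alpi, Apoa1 and Lct. Markers of crypt stem cells summed to 9891, 11082 and 8018 against 4969, 3810 and 5252 CPM. Most of the difference in that sum lay in Olfm4 (7198.5, 7918 and 5556.2 against 2294.7, 1540.2 and 2769.7 CPM). Ascl2, Axin2, Smoc2 and Lgr5 were lower as well, without overlap (log2 fold changes -2.1, -1.36, -0.93 and -0.68). Of 6 stem cell markers, 5 were called lower and 0 higher, with all 6 libraries and without control replicate 3. Slc12a2 went the other way, with overlap (1540.5, 1782.9 and 1387.2 against 2098.6, 1754.7 and 1932.1 CPM). The part of these cell types in the mitotic results was not tested.

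Levels of different members were compared per kilobase of exon. In controls Mki67 was the highest at 110 ± 31.9 CPM per kb, followed by Cdc20 at 55.1 ± 0.97, Ccnb2 at 54.6 ± 3.74, Incenp at 52.4 ± 6.96 and Top2a at 51.5 ± 11.2 CPM per kb (SD, n = 3). Those 4 neighbours did not differ beyond their spread. In the libraries labelled Klf5-KO, Mki67 stood at 79.4 ± 4.57 and Top2a at 54.9 ± 1.64 CPM per kb. Mad2l1 was the lowest member in controls at 4.56 ± 0.707 CPM per kb.

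The 5 genes that passed the test lay in the middle and lower part of this scale. Ect2 went from 17.5 ± 2.87 to 31.7 ± 3.09 CPM per kb, Cdk1 from 12.7 to 17.1, Pttg1 from 7.35 to 12.5 and Kif23 from 15.7 to 10.8 CPM per kb. In controls the levels of Ect2 and Kif23 thus lay close together, and in the libraries labelled Klf5-KO they did not.

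Exon length ranged from 1531 to 15433 bases with a median of 5046 among the members. Across the 50 genes, the Spearman correlation between length and the log2 difference of control replicate 3 from the other controls was -0.52, and over the 9246 genes with at least 10 CPM it was -0.36. The Spearman correlation between length and the log2 fold change was -0.23 with all 6 libraries and -0.37 without control replicate 3, beside -0.00 and -0.08 over those 9246 genes. These are descriptions across genes that share the same libraries. The 25 shorter members (1531 to 4934 bases) had a median log2 fold change of -0.01 and a median difference of control replicate 3 of -0.29. For the 25 longer members (5158 to 15433 bases) these medians were -0.08 and -0.42. Whether length had a part in the results was not tested beyond a fit in which the length trend was taken out, which called 3 members lower.

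**Figure D5:**
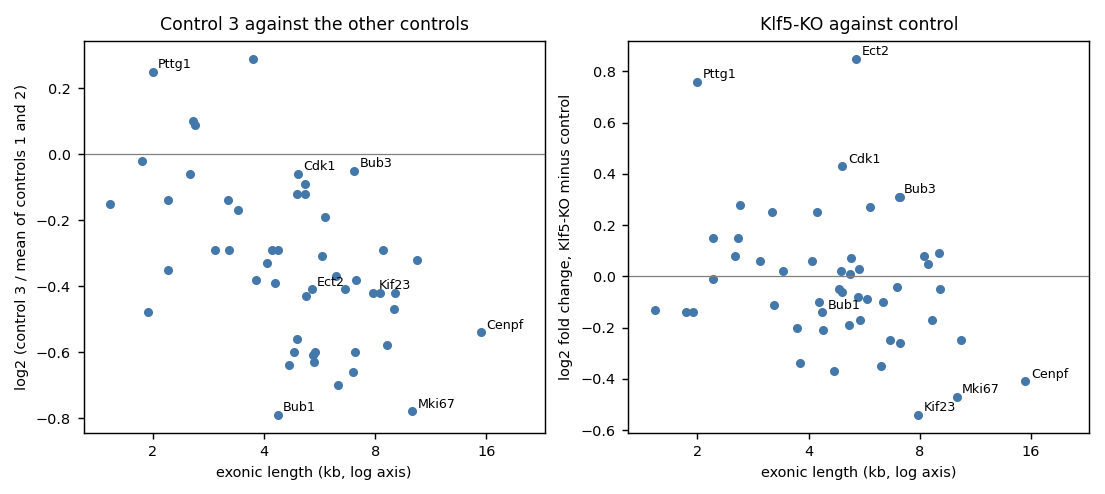
Each point is 1 of the 50 members, with exon length in kb on a log axis and, on the vertical axes, the log2 difference of control replicate 3 from the other controls (left) and the log2 fold change (right). Points slope downwards in the panel of control replicate 3 (Spearman correlation -0.52), and less so in the panel of the fold change (-0.23).

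Other genes of the pathway gave few calls as well. Of 79 tested among 80 other mitotic genes, 3 rose, 2 fell and 74 did not pass (6.33% called, against 25.8% of all tested genes), with a median log2 fold change of -0.04. Without control replicate 3, 3 were higher and 13 lower (20.3%, against 27.2% of all genes tested in that fit), with a median of -0.13. These genes summed to 4253, 3885 and 3289 CPM in controls and 3914, 3657 and 3840 CPM in libraries labelled Klf5-KO, and control replicate 3 was the lowest library in 51 of them. Bora, which activates Plk1 through Aurora A, rose from 55.86 ± 5.41 to 74.24 ± 2.37 CPM (SD, n = 3 each; log2 fold change 0.41 ± 0.09 SE, edgeR adjusted p = 0.011). The kinetochore genes Zwint (0.29 ± 0.08 SE, adjusted p = 0.034) and Cenpk (0.50 ± 0.15, adjusted p = 0.034) rose too, but Cenpk did not pass without control replicate 3 (0.41, adjusted p = 0.079). Fam83d, which brings casein kinase to the spindle, fell from 34.35 ± 2.00 to 24.01 ± 0.794 CPM (-0.52 ± 0.09, adjusted p = 0.003), and Iqgap3 fell as well (-0.35 ± 0.11, adjusted p = 0.04).

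The list of the anaphase-promoting complex, the ubiquitin ligase that Cdc20 activates, also held its regulators Fzr1 and Fbxo5. Counts given for the complex cover all 16 genes of this list. Of these, 1 was higher (6.25% called, against 25.8% of all tested genes) and none lower, with a median of -0.05. There were 0 lower also at an unadjusted p under 0.05 in edgeR, in DESeq2 and in limma-voom. Anapc10 was the gene that rose (0.38 ± 0.12 SE, edgeR adjusted p = 0.044), and leaving out any 1 library ended this call. Without control replicate 3, 2 genes of this list were lower (12.5%, against 13.4% of all genes tested in that fit). None of 11 cohesin genes passed with all 6 libraries, against 25.8% of all tested genes. Of the 11, 3, lower, had an unadjusted p under 0.05 in edgeR, DESeq2 called 1 lower and limma-voom none. Without control replicate 3, 4 were lower (36.4%, against 13.4% of all genes tested in that fit). For Nipbl, the cohesin loader, the difference was 0.06 (adjusted p = 0.73).

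Of 30 regulators of mitotic transcription and entry, 1 rose and 6 fell, beside 13.3% and 12.5% of all tested genes. Without control replicate 3, 1 was higher and 7 lower (26.7% called, against 27.2% of all genes tested in that fit). Myb, the Myb family factor of crypt progenitors, fell from 418.1 ± 27.2 to 206.5 ± 8.08 CPM (SD, n = 3 each; log2 fold change -1.02 ± 0.09 SE, edgeR adjusted p = 8.9e-05). Also lower were E2f2 (-0.67, adjusted p = 0.0051), E2f1 (-0.40, adjusted p = 0.020) and Tfdp2 (-0.61, adjusted p = 0.013), members of the E2F and DP families that drive S phase genes, and Nfya (-0.58, adjusted p = 0.0099), a subunit of NF-Y, which binds the CCAAT box. Wee1, the kinase that holds Cdk1 inactive, rose from 70.36 ± 2.96 to 89.17 ± 6.01 CPM (0.34, adjusted p = 0.017). In either direction together, the share of this list called with all libraries was 23.3%, near the 25.8% of all tested genes.

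DNA replication and S phase genes, the phase before G2 and mitosis, were described beside them. Of 26, 1 rose and 6 fell, beside 13.3% and 12.5% of all tested genes, with a median of -0.17. In either direction together, 26.9% were called, near the 25.8% of all tested genes. Without control replicate 3, 1 was higher and 12 lower (50%, against 27.2% of all tested genes) with a median of -0.24. Lower genes included the licensing factors Cdt1 (-0.61, edgeR adjusted p = 0.0016), Cdc6 (-0.42, adjusted p = 0.011) and Mcm3 (-0.47, adjusted p = 0.026), the ligase Lig1 (-0.44, adjusted p = 0.016) and Uhrf1 (-0.35, adjusted p = 0.027), while Pcna, the sliding clamp, was higher (0.36, adjusted p = 0.015). Control replicate 3 was the lowest library in 6 of 26 S phase genes and in 30 of the 50 mitotic genes. These genes summed to 2598, 2558 and 2138 CPM in controls and 2202, 2063 and 2176 CPM in libraries labelled Klf5-KO. The difference between the lists was not tested.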

How the data were processed

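Per the file headers, the authors ran featureCounts 1.4.3-p1, set for reverse-stranded libraries, over the gene models of GENCODE vM16, and deposited raw whole-number counts. The headers show no option for reads mapped to several places or over several genes. Per the submitters' processing notes, STAR 2.5.2a and mm10 were used and DESeq2 1.18.1 is named. The labels' protocols give 5 mM EDTA and 45 minutes of dissociation before sorting. GENCODE vM21 symbols matched 53274 of 53379 gene IDs. The members, gene lists and tests were chosen with earlier results of these data known.

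Counts were tested between the groups in edgeR 4.0.16 (R 4.3.3; limma 3.58.1, DESeq2 1.42.0) with trimmed mean of M-values scaling, filterByExpr and a quasi-likelihood F test with no covariate, adjusted over all 19339 genes. The common biological coefficient of variation was 17%. A log2 fold change is the libraries labelled Klf5-KO minus control, and its standard error was taken as that value divided by the root of F. On simulated counts of 19396 genes, 22% of genes changed 1.5-fold, 86% of those changed 2-fold and 100% of those changed 4-fold or more were called, and 12 of 166 calls were unchanged genes. Every simulated gene had the same 17% coefficient of variation, and a far smaller share of genes was changed than the 25.8% called in these data. The simulated shares therefore do not give the sensitivity for the members. At 61563625 to 77666540 counts a library, the limit for a gene with no count was 0.0386 to 0.0487 CPM (3 counts, counting error only). No 2 libraries differed by as little as sampling noise. Of the other pathway lists, up to 6 genes past the test, by adjusted p, are named. Alternatives were other scalings, filters, tools, a replicate block, each library left out and, added after the data were seen, removal of a length trend.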

Additional observations from a re-analysis of the deposited data

How the results depend on the processing

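Ect2 (log2 fold change 0.73 to 0.96), Pttg1 (0.67 to 0.85) and Cdk1 (0.41 to 0.48) were called in 16 of 16 alternative fits, and the members' median stayed between -0.16 and 0.07. Some uncalled members changed sign between fits. The sign was kept least often in Cdca8 (11 of 16 fits), Ndc80 (12) and Birc5 (13). Members called lower numbered 1 in the reported fit, 4 with upper-quartile scaling, 3 without mitochondrial and structural RNAs, 6 with no filter, 3 with CPM above 1 in at least 3 libraries, 5 in DESeq2, 3 with robust dispersion and 3 with the length trend removed; members called higher numbered 7 with no filter. Same-numbered libraries did not deviate together (correlations of -0.009, 0.006 and -0.041). With 3 libraries a group these correlations cannot exclude that the numbers pair the libraries, and the labels do not say. The replicate block gave 2 members lower. It gave 0 genes of the anaphase-promoting complex higher, as did upper-quartile scaling and no filter for that complex. With no filter 5 other mitotic genes were higher and 1 cohesin gene was lower, DESeq2 also gave 1 cohesin gene lower, and 2 regulators were higher in DESeq2, with CPM above 1 and with the length trend removed. At an adjusted p under 0.01, 1226 of all genes were higher and 1118 lower, 0 members were lower, 0 other mitotic genes, 0 of the anaphase-promoting complex, 0 regulators and 0 S phase genes were higher, and 1 other mitotic gene, 3 regulators and 1 S phase gene were lower. Leaving out each library in turn gave 1605 to 2740 of all genes higher and 1467 to 2664 lower. It gave 3 to 6 members higher and 0 (without control replicate 1 or Klf5-KO replicate 2) to 11 (without control replicate 3) lower. Among other mitotic genes it gave 1 to 8 higher and 1 to 13 lower, in the anaphase-promoting complex 0 higher and 0 to 2 lower, among regulators 0 to 2 higher and 3 to 7 lower, in cohesin 0 to 4 lower, and among S phase genes 0 to 1 higher and 2 to 12 lower. The highest numbers of lower genes came without control replicate 3. The cause was not tested. Among single members, Kif20a was called lower in 7 and Mki67 in 3 of the 16 fits. Ncapd2 was called lower in at least 8 and Cenpf in at least 4, counted on rounded p-values. The edgeR adjusted p rounded to 0.05 for Ncapd2 with robust dispersion and for Cenpf with upper-quartile scaling, and both are among the calls counted for those fits above.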
